A study of Mus musculus with 10 samples.

Results

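H3K27me3 coverage of 10 genes of the p53 family and its damage response was compared across 5 mouse B-cell lymphoma lines. The genes are *Trp53*, *Trp63* and *Trp73*, the p53 inhibitors *Mdm2* and *Mdm4*, and the effectors *Gadd45a*, *Gadd45b*, *Gadd45g*, *Btg2* and *Phlda3*. They were chosen by symbol and make up 10 of the 37310 genes of the mm9 annotation, 22380 of which are protein-coding. The parental line came from an Eμ-Myc Cdkn2a-/- lymphoma of a C57BL/6J mouse, in which an immunoglobulin heavy chain enhancer drives *Myc* in B-lineage cells. The R100, R500, R1000 and R4000 lines are cells of this line that survived dose escalation with mafosfamide, an alkylating agent related to cyclophosphamide. They were taken at 100, 500, 1000 and 4000 nM after 10, 18, 23 and 37 days, so dose and time in culture cannot be told apart. The genotype is shared, so all 5 lines lack *Cdkn2a*, which encodes Arf, an inhibitor of Mdm2, and the cyclin-dependent kinase inhibitor p16. Cells were grown without the drug for the ChIP-seq, in which chromatin was precipitated with an antibody to H3K27me3.

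Each line has 1 deposited peak list, with the start and end of each peak on a grid of 50 bp and no height, count or score. Depth is therefore unknown, and no difference between lines could be tested. Coverage of a gene is the number of bases under distinct peaks from 5 kb upstream of the transcription start site (TSS) to the gene end. A gene was called covered at 150 bp or more, which is 3 bins of 50 bp. The lists differ in size, and R100 and R500 stand apart with 25180 and 21888 distinct peaks, against 6820 to 10778 in the others. The R100 list covers 3.09 times and the R500 list 2.78 times the bases of the parental list, while R1000 covers 0.988 times and R4000 0.658 times as many. Each value below belongs to lists of these sizes.

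p53 is a transcription factor that DNA damage stabilizes. It induces genes for cell cycle arrest, repair and apoptosis, and it is held in check by Mdm2, which ubiquitinates it, and by Mdm4, which blocks its transactivation domain. p63 and p73 share its DNA-binding domain, and each is made from alternative promoters that give forms with or without the transactivation domain. H3K27me3 is placed by the polycomb repressive complex 2 (PRC2), mostly at CpG-rich promoters of genes that are silent or poised.

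The following mm9 sequences are the stretches covered in the greatest number of lists in the genes that the comparison turns on, together with a stretch before the first TSS of *Trp63*, which no list covers. They are given 5′ to 3′ on the strand of the gene, with each CpG in capitals. The *Trp73* stretch (chr4:153514501-153514550, minus strand, upstream) is the nearer to the TSS of 2 that all 5 lists covered, and the *Gadd45g* stretch (chr13:51942651-51942850, plus strand, with 130 exonic bases and the rest intronic) was also covered in all 5. The *Phlda3* stretch (chr1:137662051-137662350, plus strand, upstream) was covered over its whole 300 bp in the parental, R100 and R500 lists, over 250 bp in R1000 and over 50 bp in R4000. The *Btg2* stretch (chr1:135975251-135975550, minus strand, with 62 exonic bases and the rest intronic) was covered over 50, 300, 250, 150 and 150 bp in the parental, R100, R500, R1000 and R4000 lists. The *Mdm2* stretch (chr10:117147501-117147600, minus strand, intronic) is the only peak of that gene and was found in R500, and the *Trp53* stretch (chr11:69394351-69394400, plus strand, intronic) was covered in R100 and R1000. The *Trp63* stretch (chr16:25683699-25683848, plus strand) ends 1 bp before the TSS.
Trp73: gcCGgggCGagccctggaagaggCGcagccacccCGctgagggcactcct
Gadd45g: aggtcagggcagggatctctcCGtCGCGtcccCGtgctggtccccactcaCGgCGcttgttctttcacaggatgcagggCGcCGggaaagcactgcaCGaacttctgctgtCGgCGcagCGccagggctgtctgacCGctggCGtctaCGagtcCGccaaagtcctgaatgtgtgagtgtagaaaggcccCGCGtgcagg
Phlda3: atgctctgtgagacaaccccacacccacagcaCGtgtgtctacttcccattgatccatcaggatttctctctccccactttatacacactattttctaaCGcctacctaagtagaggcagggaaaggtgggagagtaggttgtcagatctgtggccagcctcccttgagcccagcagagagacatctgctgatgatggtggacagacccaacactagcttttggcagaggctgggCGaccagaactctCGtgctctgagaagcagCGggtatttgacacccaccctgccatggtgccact
Btg2: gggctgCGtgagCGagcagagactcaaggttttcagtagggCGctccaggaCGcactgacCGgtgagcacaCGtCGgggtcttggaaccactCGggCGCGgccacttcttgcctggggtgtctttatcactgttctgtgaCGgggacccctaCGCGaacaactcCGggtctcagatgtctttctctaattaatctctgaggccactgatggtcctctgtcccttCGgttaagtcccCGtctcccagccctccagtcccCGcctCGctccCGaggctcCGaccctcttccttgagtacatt
Mdm2: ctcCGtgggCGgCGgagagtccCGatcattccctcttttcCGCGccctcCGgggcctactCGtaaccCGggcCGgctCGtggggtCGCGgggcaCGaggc
Trp53: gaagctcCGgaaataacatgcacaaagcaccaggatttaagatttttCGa
Trp63: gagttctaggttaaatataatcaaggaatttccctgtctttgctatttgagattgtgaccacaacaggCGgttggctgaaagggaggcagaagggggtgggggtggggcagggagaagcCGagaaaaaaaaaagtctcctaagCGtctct
The stretches differ in CpG content. The *Mdm2* peak held 14 CpGs in 100 bp, the *Gadd45g* stretch 9 per 100 bp, the *Trp73* stretch 8, the *Btg2* stretch 6.67 and the *Trp53* stretch 4. A second *Gadd45g* stretch covered in all 5 lists, of 50 bp and not printed here, held 16 per 100 bp. The *Phlda3* stretch, with 1.67 CpGs per 100 bp, had few, as did the other *Trp73* stretch covered in all 5 lists and the uncovered bases before *Trp63*, with 2 per 100 bp each.

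In the parental line, 3 of the 10 genes were covered at 150 bp or more, namely *Trp73*, *Gadd45g* and *Phlda3*, against 7.67% of all protein-coding genes. In R100 6 of the 10 were covered, against 21.7% of protein-coding genes, with *Btg2*, *Trp53* and *Gadd45b* added to the 3 parental genes. *Trp53* and *Gadd45b* lost this call in R100, leaving 4 genes, with peaks of at least 200 bp, with lists of equal number and with scaling to the covered length of each list. R500 covered 5 of them, against 17%, and lacked only *Trp53* of the 6. In R1000 and R4000 the count was 4 in each, against 8.86% and 7.05%, and the genes were *Trp73*, *Gadd45g*, *Phlda3* and *Btg2* in both. With the 5 kb upstream alone, 2 genes were covered in the parental line and 3, 3, 2 and 1 in R100 to R4000. The shares of protein-coding genes given here belong to the longer window and cannot be set against these counts. The 3 genes covered in the parental line were covered in all 5 lists, as were 4.35% of protein-coding genes. This depended on the setting. With peaks of at least 200 bp, *Trp73* had 0 bp in R4000. With the 5 kb upstream alone, *Gadd45g* had 100 bp in the parental line and *Phlda3* 100 bp in R4000, both below the limit. At the other end, *Trp63* and *Mdm4* had no covered base in any list, the state of 57.2% of protein-coding genes. As the chromatin was bulk, fewer cells with the mark at a gene and less of the mark per cell cannot be told apart.

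**Figure D1:**
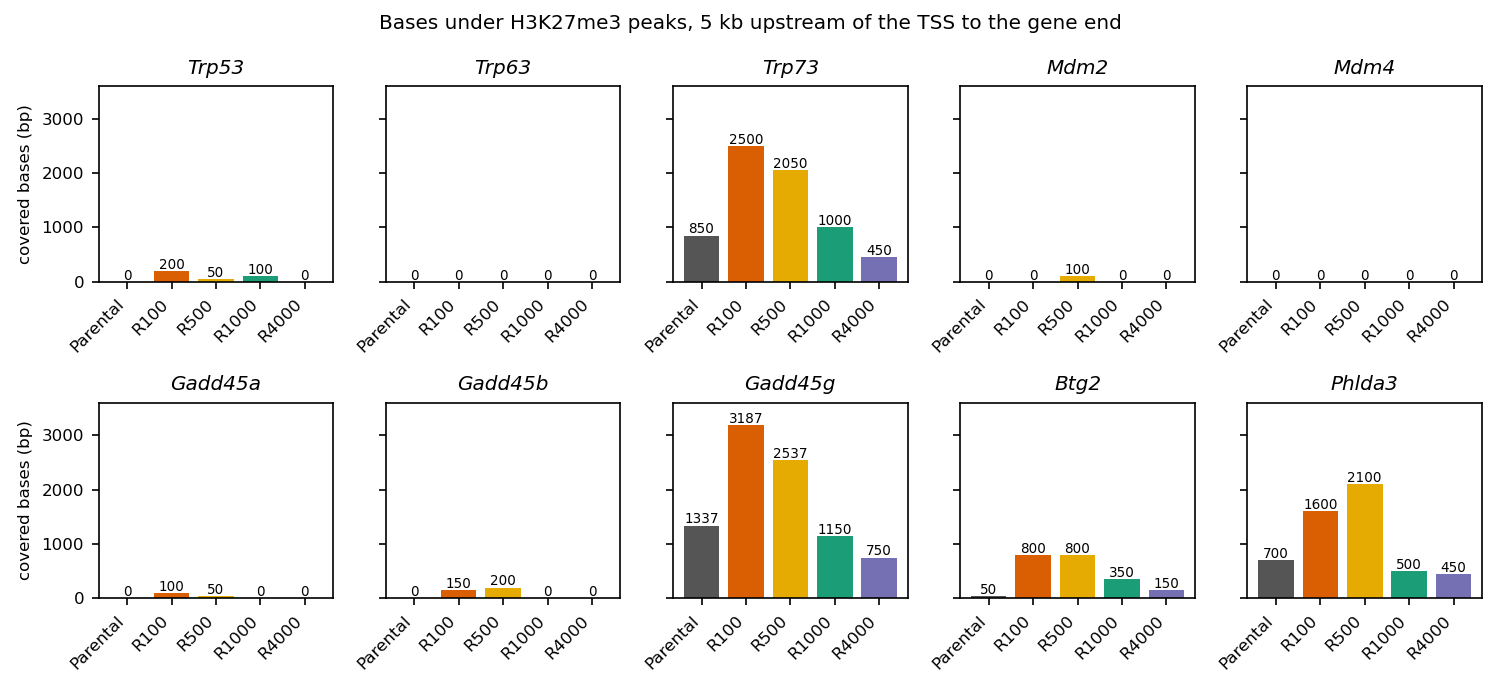
Bases under H3K27me3 peaks (y axis, bp, the same scale in each panel) in each of the 5 lines (x axis, 1 list per line, no error bars) for each of the 10 genes, from 5 kb upstream of the TSS to the gene end. *Trp73*, *Gadd45g* and *Phlda3* have bars in every line, *Btg2* reaches 800 bp in R100 and R500 from 50 bp in the parental line, and the other 6 genes stay at or below 200 bp.

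**Figure D2:**
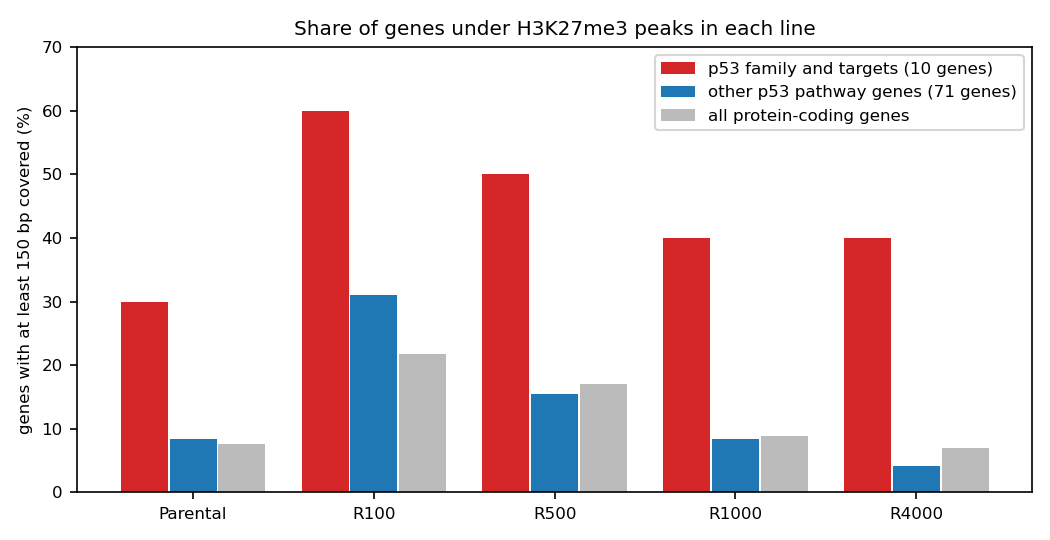
Percent of genes with at least 150 bp covered (y axis) in each line (x axis) for the 10 genes, for 71 other entries of the p53 pathway and for the 22380 protein-coding genes. The bars of the 10 genes stand for 3, 6, 5, 4 and 4 genes, and each line has 1 list, so no error can be drawn.

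The 3 members of the p53 family differed from each other. *Trp53*, on chromosome 11 from 69393861 to 69405375, had no covered base in the parental and R4000 lists, 200 bp in R100, 100 bp in R1000 and 50 bp in R500. These bases were 4 peaks of 50 or 100 bp, all within introns between 440 and 839 bp downstream of the TSS. No base was covered in both R100 and R500, and 50 bp were covered in both R100 and R1000. The same peaks lie in the window of *Wrap53*, a divergent gene on the opposite strand whose TSS is 104 bp away, so they cannot be assigned to either gene. A second start of coding *Trp53* transcripts, 6532 bp downstream, had no covered base within 2 kb in any list.

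*Trp63*, on chromosome 16 from 25683849 to 25892188, was empty in all 5 lists, at both of its annotated coding starts, which lie 118153 bp apart and give the long and the N-terminally truncated forms of p63. The nearest peak to its window was 253.1 kb away in R4000 and between 572.5 and 689.8 kb away in the other lines. Its window, at 213.3 kb, is the longest of the 10.

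*Trp73*, on chromosome 4 from 153430358 to 153514317, had 850 covered bp in the parental line and 2500, 2050, 1000 and 450 bp in the resistant lines from R100 to R4000. R100 and R500 were the highest and R4000 the lowest. All these bases lay around the first of its 3 coding starts, from which the form with the transactivation domain is transcribed. The 2 internal starts, 23603 and 43035 bp downstream, had no covered base within 2 kb in any list. In R100 a single peak of 2250 bp ran across the TSS, and in R500 a peak of 1550 bp did so. The parental, R1000 and R4000 lists had 5 separate peaks each, none of them over the TSS, the widest being 500, 550 and 150 bp. Of the 2800 bp covered in at least 1 list, 100 bp were covered in all 5. All of these *Trp73* peaks also lie in the window of *Wdr8*, which starts 2164 bp away on the opposite strand.

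The inhibitors carried almost no H3K27me3 peaks. *Mdm2*, on chromosome 10 from 117125944 to 117147814, was covered over 100 bp in R500, by the CpG-rich peak shown above, 214 to 313 bp downstream of the TSS, and over 0 bp in the parental, R100, R1000 and R4000 lines. In those lines the nearest peak lay between 183.4 and 625.3 kb from its window. *Mdm4*, on chromosome 1 from 134886422 to 134921943, was covered over 0 bp in all 5 lines. The nearest peak was 101.6 kb from its window in the parental line and 14808 to 16008 bp from it in the 4 resistant lines.

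Among the Gadd45 genes, which encode small stress proteins that bind cell cycle and MAP kinase pathway proteins, *Gadd45g* differed from its 2 paralogues. *Gadd45g*, on chromosome 13 from 51942047 to 51943837, had 1337 covered bp in parental cells, and the resistant lines from R100 to R4000 had 3187, 2537, 1150 and 750 bp. Per kb of window, which allows genes to be compared, this was 196.9, 469.3, 373.6, 169.3 and 110.4 bp. In every list it was the highest of the 10 genes on this scale, and it exceeded at least 99.5% of protein-coding genes. Its peaks lay on the gene body in all lines, and R100 and R500 also had upstream coverage of 1450 and 800 bp, against 100 bp in each of the other 3. *Gadd45a*, on chromosome 6 from 66985090 to 66987451 and a well known p53 target, was covered over 0, 100, 50, 0 and 0 bp in the order parental, R100, R500, R1000 and R4000. *Gadd45b*, on chromosome 10 from 80392836 to 80394949 and known as a target of NF-κB and TGF-β signalling, was covered over 0, 150, 200, 0 and 0 bp in the same order. Both had peaks in R100 and R500 and in no other line. For *Gadd45b* 100 bp of them were covered in both lists, and for *Gadd45a* 0 bp were. The *Gadd45a* peaks also lie in the window of the noncoding gene *E230016M11Rik*.

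*Btg2*, an antiproliferative p53 target that recruits the mRNA deadenylation machinery, lies on chromosome 1 from 135971747 to 135975697. Its coverage was 50 bp in parental cells, 800 bp in both R100 and R500, and 350 and 150 bp in the R1000 and R4000 lines. All 4 resistant lines were above the parental line, but R4000 only by 100 bp, less than the 150 bp taken as the limit for a difference. With peaks of at least 200 bp, the parental line and R4000 both had 0 bp. Every peak lay between the TSS and 1246 bp downstream of it, mostly in intronic sequence, and the 5 kb upstream had no covered base in any list. R100 and R500 had 500 bp in common. No base was covered in more than 3 lists.

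*Phlda3*, a p53 target whose pleckstrin homology domain protein competes with Akt for membrane lipids, lies on chromosome 1 from 137662696 to 137665713. The parental list covered 700 bp of it, the R100 and R500 lists 1600 and 2100 bp, and the R1000 and R4000 lists 500 and 450 bp. R500 was the highest of the 5, and R1000 and R4000 were the lowest. Peaks flanked the TSS on both sides in every line except R1000, whose single peak of 500 bp lay upstream. No peak crossed the TSS. Although all 5 lists covered the gene, no base was covered in all of them, and 450 bp were covered in 4.

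**Figure D3:**
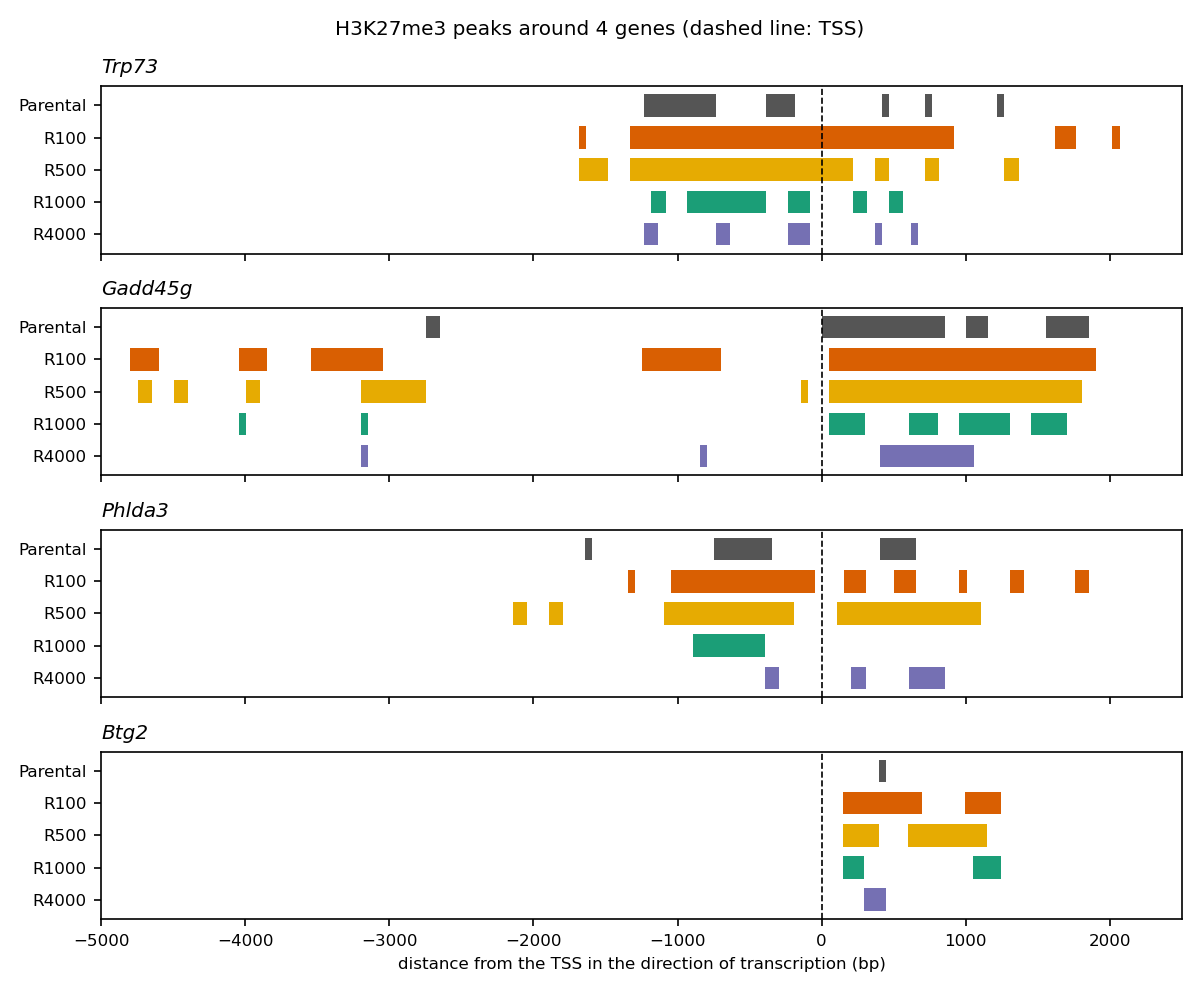
Peaks of each list (rows) around the TSS of *Trp73*, *Gadd45g*, *Phlda3* and *Btg2*, drawn to scale against the distance from the TSS in the direction of transcription (x axis, bp), with the TSS as a dashed line. In *Trp73* the TSS is covered in R100 and R500 but not in the other lines, in *Gadd45g* most of the coverage lies downstream of the TSS, in *Btg2* all of it does, and in *Phlda3* it lies on both sides except in R1000.

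The next question was how coverage in each resistant line stood against the parental line, with a difference of 150 bp as the limit for a call. In R100 6 of the 10 genes had more covered bases than in the parental line, against 20.3% of protein-coding genes, and 0 had fewer, against 0.666%, whereas with values scaled to the covered length of each list 1 had more, against 4.69%, and 2 had fewer, against 3.1%. With lists cut to an equal number of peaks, the widest of each, 4 had more in R100, against 12.9%, and 0 had fewer, against 1.18%. R500 had 5 genes with more, against 15.5%, and 0 with fewer, against 0.63%, and scaled values gave 1 with more, against 4.47%, and 1 with fewer, against 2.88%. Lists of equal number gave 5 with more in R500, against 11.2%, and 0 with fewer, against 1.2%. In R1000 2 genes had more, against 4.83%, namely *Btg2* by 300 bp and *Trp73* by 150 bp, which is at the limit. The 2 genes with fewer in R1000, against 3.38%, were *Phlda3* and *Gadd45g*, where the covered length fell by 200 and 187 bp. In R4000 0 genes had more, against 2.96%, and 3 had fewer, against 5.02%. The covered length fell by 587 bp in *Gadd45g*, by 400 bp in *Trp73* and by 250 bp in *Phlda3*. Only a gene with at least 150 bp in the parental list can have 150 bp fewer, and these 3 are the members covered there. Of the 1716 protein-coding genes covered in the parental line, 56.5% had fewer bases, by any amount, in R1000 and 77.3% in R4000.

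As ratios to the parental line, coverage in R100 was 2.94 for *Trp73*, 2.38 for *Gadd45g* and 2.29 for *Phlda3*, near the median ratio of 2.44 over the 1716 protein-coding genes covered in the parental line. In R500 the ratios were 2.41, 1.90 and 3, beside a median of 2.33. R4000 had ratios of 0.529, 0.561 and 0.643, beside a median of 0.469. When each value was scaled to the covered length of its list, the R100 ratios became 0.953, 0.773 and 0.741, beside a median of 0.792, and the R500 ratios 0.868, 0.683 and 1.08, beside a median of 0.840. This scaling divides all values of a list by the same number. *Btg2* was 16 times the parental value in R100 and in R500, 7 times in R1000 and 3 times in R4000, from a parental value of 1 bin of 50 bp. Scaled, its ratios were 5.19, 5.76, 7.08 and 4.56, so it stayed above the parental line in all 4.

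**Figure D4:**
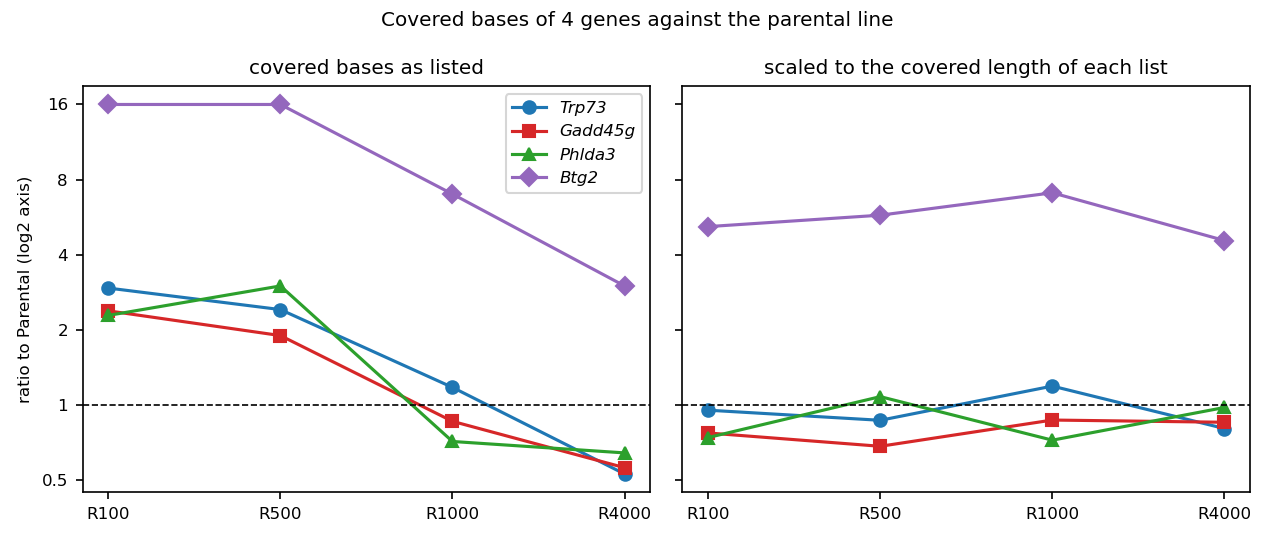
Ratio of covered bases to the parental line (y axis, log2 scale) in the 4 resistant lines (x axis, 1 list each, no error bars) for 4 genes, as listed (left) and scaled to the covered length of each list (right). On the left *Trp73*, *Gadd45g* and *Phlda3* run from 2.29 to 2.94 in R100 to 0.529 to 0.643 in R4000, on the right they stay between 0.683 and 1.19, and *Btg2* is above 1 in both panels.

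Where the peaks lay was compared next. Of the 850 parental bp of *Trp73*, 800 bp were also covered in R100 or R500, and the corresponding numbers were 1187 of 1337 bp in *Gadd45g*, 650 of 700 bp in *Phlda3* and 50 of 50 bp in *Btg2*. All the bases covered in R4000 in these genes, namely 450, 750, 450 and 150 bp, were covered in R100 or R500 as well. Fewer of them lay under parental peaks, namely 150 bp in *Trp73*, 500 bp in *Gadd45g*, 100 bp in *Phlda3* and 50 bp in *Btg2*. R100 and R500 cover more bases than the parental list, and the part of that in these overlaps was not tested.

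Most of the peaks lay close to the TSS. Over all lists the 10 genes held 85 peaks, 72 of which reached within 2 kb of the TSS, and 2 of which crossed it. The covered bases were 10566 bp upstream, 6915 bp exonic and 6780 bp intronic. Bases covered within 2 kb of the TSS were counted past the gene end in short genes, where the main window stops. Set against the window's covered bases, they came to 98.7% in parental cells and 90.2, 89.4, 96.8 and 97.2% in R100 to R4000. These percentages are therefore not strict shares. In *Gadd45g* 63, 113 and 13 bp of the peaks lay past the gene end in the parental, R100 and R500 lists. For all protein-coding genes the percentages, taken in the same way, were 54.2% in parental cells and 61.2, 59.6, 64.1 and 67.1% in R100 to R4000. In R100 *Gadd45g* had peaks of 200, 200 and 500 bp that lay farther than 2 kb upstream of the TSS. The ratios were not matched for window length, which was 6.8 kb for *Gadd45g*, 8.0 kb for *Phlda3* and 9.0 kb for *Btg2*. *Trp73*, with a window of 89.0 kb, had its whole coverage within 2 kb in every list except for 50 bp in R100.

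CpG content around the TSS, a measure that the choice of genes did not use, was taken as the observed over the expected number of CpGs within 1 kb on both sides. *Trp63* was the lowest of the 10 with 0.209 and 16 CpGs, in the lowest of 4 equal bins of protein-coding genes by this ratio. In that bin 1.57% of genes were covered in R100 within 2 kb of the TSS. Of the others 5 genes were in bin 3 and 4 in bin 4, the highest, where 26.3 and 32.6% of genes were covered in R100. The highest value, 0.848 with 140 CpGs, was that of *Mdm2*, which had its 1 peak in R500. *Gadd45g* followed with 0.737, *Gadd45a* with 0.708 and *Gadd45b* with 0.693, so the 3 Gadd45 genes had like CpG content and unlike coverage. *Phlda3* had 0.642, *Trp73* 0.632, *Mdm4* 0.612, *Trp53* 0.596 and *Btg2* 0.573.

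**Figure D5:**
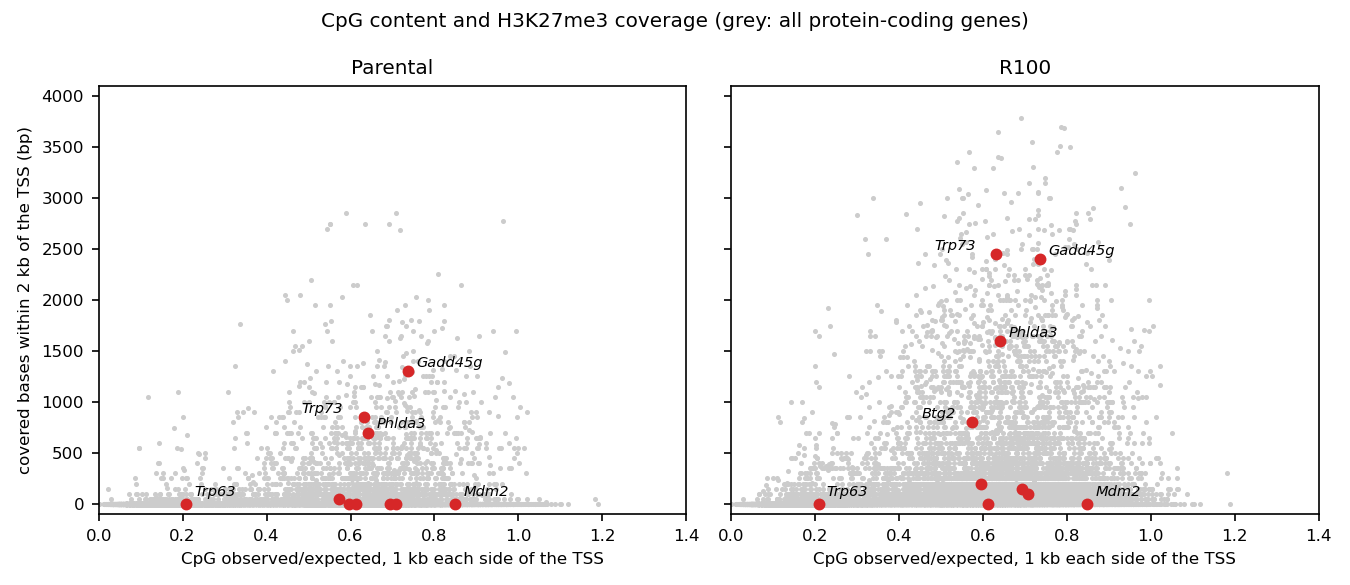
Bases covered within 2 kb of the TSS (y axis, bp) against the CpG observed over expected ratio in the 1 kb before and after it (x axis) in the parental line (left) and in R100 (right), with all protein-coding genes in grey and the 10 genes in red. Names are given at 500 bp or more and for *Trp63* and *Mdm2*, which lie at 0 bp in both panels, at the lowest and highest CpG content of the 10.

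The p53 response element, 2 half-sites of 10 bases without a spacer, was searched in both orientations with the core C and G of each half-site kept and at most 2 mismatches elsewhere. It occurs within 2 kb of the TSS in 874 of the 22380 protein-coding genes (3.91%) and in 0 of the 10 genes. Elements with a spacer or with more mismatches are missed by this search, so a gene without a match is not shown to lack an element. In the whole windows there were 4 matches in *Trp73*, 3 in *Mdm4*, of which 2 overlap each other, 1 in *Mdm2* and 1 in *Trp63*, and none of them was covered in any list. The match nearest to an annotated start lies 47 bp from the third coding start of *Trp73* (chr4:153471329-153471348, minus strand, core bases in capitals), in the part of the gene that had no peak.
Trp73: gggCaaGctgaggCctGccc

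Other genes of the p53 pathway were set beside the 10. Of 71 entries in the annotation for other targets, regulators and paralogues, 6 were covered in parental cells (8.45%), and 22, 11, 6 and 3 were covered in the resistant lines from R100 to R4000 (31.0, 15.5, 8.45 and 4.23%). The shares of all protein-coding genes given above were 7.67, 21.7, 17, 8.86 and 7.05%. The numbers with at least 150 bp more than in the parental line were 18, 10, 4 and 2 in R100, R500, R1000 and R4000, beside 20.3, 15.5, 4.83 and 2.96% of protein-coding genes. Those with at least 150 bp fewer were 2, 1, 2 and 4, beside 0.666, 0.63, 3.38 and 5.02%. Covered in all 5 lists were *Cdkn1a* and *Hipk2*. *Cdkn1a*, which encodes the cell cycle inhibitor p21, was covered over 500, 1500, 1600, 800 and 1100 bp in the order parental, R100, R500, R1000 and R4000. *Hipk2*, a kinase that phosphorylates p53, was covered over 1200, 1650, 1450, 1250 and 1250 bp.

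Among 16 arrest and survival targets, the genes covered numbered 1, 4, 2, 1 and 1 in that order of lines, with *Zmat3* next after *Cdkn1a* at 0, 350, 150, 0 and 0 bp. Of 14 death targets, 2, 6, 4, 2 and 0 were covered. In the death receptor genes *Fas* and *Tnfrsf10b*, coverage was 200, 50, 600, 200 and 0 bp and 150, 250, 550, 100 and 0 bp, and in *Ei24*, with the same sum, it was 100, 300, 350, 300 and 0 bp. Of 12 repair and metabolism targets, 2, 2, 1, 0 and 1 were covered, led by *Ephx1*, an epoxide hydrolase, at 200, 250, 850, 50 and 50 bp, with *Abhd4* next at 250, 50, 0, 0 and 0 bp. The regulators, 21 genes, had 1, 6, 3, 2 and 1 covered, with *Ppp1r13l*, an inhibitor of p53, at 0, 450, 300, 200 and 50 bp. The paralogues, 8 entries for 7 symbols, had 0, 4, 1, 1 and 0 covered. *Phlda2*, a paralogue of *Phlda3*, was covered over 0, 950, 500, 400 and 50 bp, and *Tob2*, related to *Btg2*, had 2 entries that were covered in R100 alone, over 400 and 250 bp.

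For the 3 genes with most coverage, the protein-coding genes with the most similar values over the 5 lists were found by the summed absolute difference in covered bases. For *Trp73* the nearest was its neighbour *Wdr8*, with a difference of 0 bp because the peaks are the same, followed by *Mpp2* (200 bp) and *Zfp652* (300 bp). For *Gadd45g* they were *2010107G23Rik* (639 bp), *Zbtb7c* (813 bp) and *Abtb2* (863 bp), all with longer windows. For *Phlda3* they were *Tmem9* (400 bp), *Elovl3* (534 bp) and *Gdf11* (600 bp).

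The labels were checked as far as peak lists allow. *Cdkn2a*, which all lines lack, had 0 bp covered in every list, a state it shares with most genes. Of 8 B-cell markers, 0 were covered in parental cells and 3, 4, 2 and 1 in the resistant lines from R100 to R4000. The corresponding counts were 1, 3, 4, 0 and 0 of 6 T-cell markers, 1 in each list of 5 myeloid markers, 0, 1, 1, 1 and 1 of 4 erythroid markers and 0, 1, 2, 1 and 1 of 5 stromal markers. Beside these counts, 7.67, 21.7, 17, 8.86 and 7.05% of all protein-coding genes were covered from the parental line to R4000, in lists of unequal size. Whether these differences have a part in the results on the 10 genes was not tested, and expression was not analysed here.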

How the data were processed

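H3K27me3 ChIP-seq of 5 lines was used, and the 5 RRBS samples were left out, since they measure DNA methylation. The authors called the peaks against input chromatin with a Poisson test, and the submitters' processing notes name Bowtie and mm9. The threshold of the lists and the pooling of replicates are not given in the sources used here. The deposited lists hold positions only. R100 and R500 hold each peak 2 times (50360 and 43776 entries), and distinct peaks were used. Samples were grouped by title. On every chromosome with peaks, positions fell within the NCBIM37 (mm9) length. Genes, starts and sequence came from GENCODE and NCBIM37, and Python 3.11.15 (pandas 2.3.3, numpy 2.4.6, matplotlib 3.10.9) was used for coverage and figures. Simulated peaks with known coverage were used to test the code.

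The members, gene lists and limits were chosen with earlier results of these data known. The minimum of 3 bins follows the paper, without its p-value limit. The paper's window is the 5 kb upstream alone, which is an alternative here, and the main window runs on to the gene end. Named were all 10 genes, *Cdkn2a*, genes sharing a peak with a member, the 3 most similar genes for each of the 3 members with most coverage, and the 2 genes with most coverage in each p53 list, ties included. The marker lists are given as counts, and a gene that the rule names there is not reported here. The p53 lists held 71 symbols, of which *Pidd1* was not matched and *Tob2* had 2 entries. Other settings were peaks of at least 200 bp, peaks joined within 1000 bp, lists of equal number, the 5 kb upstream alone, 2 kb around the TSS, a minimum of 1 bp, and scaling to the parental covered length. With 1 list per line there was no test.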

Additional observations from a re-analysis of the deposited data

Results flagged for a closer look

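Against the parental line, 3 genes had more covered bases in some resistant lines and fewer in others. They are the 3 members covered in the parental line. Of the 1716 protein-coding genes covered there, 85.3% had more bases, by any amount, in R100 and 84.4% in R500. Fewer bases were found in 56.5% of them in R1000 and in 77.3% in R4000. The difference between lines was not tested, since each line has 1 list. In *Trp73* the covered length was 1650 bp above the parental line in R100, 1200 bp above it in R500 and 150 bp above it in R1000, and it fell by 400 bp in R4000. In *Gadd45g* it was 1850 bp above in R100 and 1200 bp above in R500, and it fell by 187 bp in R1000 and fell by 587 bp in R4000. In *Phlda3* it was 900 bp above in R100 and 1400 bp above in R500, and it fell by 200 bp in R1000 and fell by 250 bp in R4000. The size of the lists moves with these values, at 3.09, 2.78, 0.988 and 0.658 times the parental covered length in R100, R500, R1000 and R4000.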

How the results depend on the processing

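With 1 list per line no replicate could be left out. No paired analysis was possible because each group has 1 sample and no test was run. Of 91 counts of genes recomputed under the alternatives, 72 were within 1.5 times the reported count. With the 5 kb upstream alone, the members covered from R100 to R4000 were 3, 3, 2 and 1. Those with more covered bases than the parental line were then 3 in R100, 3 in R500 and 0 in R1000, and those with fewer in R1000 were 0. No share of protein-coding genes is given for that window. With peaks of at least 200 bp, 2 members were covered in R4000 and 1 had more in R1000. With a minimum of 1 bp, 8 were covered in R500, against 27.2% of protein-coding genes. At that minimum 8 had more in R500 and 1 had more in R4000. In lists of equal number (6820 peaks), 1 had more in R4000. Scaled to the parental covered length, 1 had more and 2 had fewer in R100, 1 had more and 1 had fewer in R500, and 1 had more in R4000. The shares for the scaled counts in R100 and R500 are given above. No share was taken for peaks of at least 200 bp, for differences at 1 bp, or for the R4000 counts under these settings. Of 108 recomputed values of the 18 called differences, 9 were opposite in sign and 12 were 0. The *Trp73* difference in R1000 was -150 bp with peaks of at least 200 bp and -750 bp with peaks joined within 1000 bp, which gave 663 bp for *Gadd45g* in R1000. With the upstream bases alone, *Phlda3* in R1000 had 50 bp more. Scaled, the differences in R100 were -39.7 bp for *Trp73*, -304.1 bp for *Gadd45g* and -181.4 bp for *Phlda3*, and in R500 -111.8 bp for *Trp73* and -423.4 bp for *Gadd45g*. The cause of these changes of sign was not tested. Depth is unknown, so a gene without a peak is not shown to lack the mark.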
